A study of Neurospora crassa OR74A with 26 samples.

Results

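The genes con-6, con-8, con-10, eas and ccg-1 of the filamentous fungus Neurospora crassa are used as markers of conidiation, the formation of asexual spores. They were chosen by name and are 5 of the 9733 genes in the deposited tables, and all 5 passed the filter on low values. con-6 (NCU08769), con-10 (NCU07325), eas (NCU08457, also called ccg-2) and ccg-1 (NCU03753) were found under the IDs by which they were chosen. con-8 was chosen as NCU09235 and is listed as NCU10997, which the RefSeq table of assembly NC12 gives as its old locus tag. By the coordinates of the deposited files, whose genome build is not given in the sources used here, con-6 lies on supercontig 3 at 5205042 to 5205927, con-10 on supercontig 4 at 4364944 to 4365763 and con-8 on supercontig 1 at 9463885 to 9465312. eas lies on supercontig 2 at 3571946 to 3572797, and ccg-1 on supercontig 5 at 2302672 to 2303443. Each has 1 listed transcript, and no other gene listed there overlaps any of them.

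Conidia form on aerial hyphae that bud into chains of spores, and loss of the carbon source, exposure to air, light and the circadian clock are known triggers of the process. The con genes were found as transcripts that accumulate during conidiation. eas encodes the hydrophobin that coats the conidium with a water-repellent layer of rodlets, and ccg-1 is a clock-controlled gene that is also repressed by glucose.

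The study asked how the fungus responds to cellulose and which part of the response needs the transcription factor genes clr-1 and clr-2. Cultures were started from conidia, grown for 16 h with sucrose, washed and moved to fresh medium. RNA came from 3 strains: a clr-1 deletion strain and a clr-2 deletion strain, in which a hygromycin resistance cassette takes the place of the open reading frame, and wild type. The deletion strains were sampled on Avicel, a crystalline cellulose, and on sucrose, each at 1 h and 4 h, with 1 library per condition, 8 in all. Wild type was sampled on Avicel at 30 min, 1 h, 2 h and 4 h, and on sucrose or without a carbon source at both 1 h and 4 h, in 18 libraries. The wild-type Avicel and sucrose groups at both of these times, and the no-carbon group at 4 h, have 3 biological replicates, and the other wild-type groups have 1 library. Cultures before the shift were not analysed here, so each medium is compared with sucrose at the same time.

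Levels are the deposited FPKM, fragment numbers scaled for transcript length and library size. A log2 change is the difference between 2 group means on the log2(FPKM + 1) scale. The pseudocount of 1 makes the changes of genes near 0 smaller than the ratio of their FPKM. Tests are two-sided tests of limma over 8629 genes with Benjamini-Hochberg adjustment, and "higher" or "lower" as a result means an adjusted p under 0.05. The recovered depth is 11.8 to 110.6 in units of 1e+06 reads per library. Read lengths are not given in the labels and were estimated, as the length that makes the most recovered read numbers whole. In the Avicel and sucrose triplicates the library numbered 1 is the shallowest (11.8 to 15.9 in the same units). Its estimated read length is 36 or 40 bases, against 50 bases for the others and 51 bases for every no-carbon library. Read length and the no-carbon medium therefore cannot be told apart. As a check of the labels, the 4 clr-2 deletion libraries each list clr-2 at 0, and clr-1 stands at 6.13 to 23.1 FPKM over both media in the clr-1 deletion strain, against 253 to 950 FPKM on Avicel and 22.3 to 59.3 FPKM on sucrose in wild type.

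After 4 h on Avicel all 5 genes were higher than on sucrose, and the 3 Avicel libraries lay above the 3 sucrose libraries for each of them, as they did for 3108 of the 8629 tested genes (36%). Of all tested genes 34.3% were higher and 24.2% lower in this comparison, 58.4% in either direction. The median log2 change of the 5 genes was 7.83, and that of all tested genes was 0.24. RNA from whole cultures cannot tell more cells of one type from more RNA per cell.

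The spore protein gene con-6 stood at 2082, 654 and 517 FPKM on Avicel at 4 h, against 0, 8.01 and 3.85 FPKM on sucrose. Its log2 change was 7.98 (SE 0.94, adjusted p = 8.56e-06). con-8, another gene named for its transcript in conidiating cultures, had 3628, 1076 and 1138 FPKM on Avicel, against 0, 12.2 and 3.47 FPKM on sucrose, a log2 change of 8.72 (SE 0.74, adjusted p = 4.34e-07). In both of these genes the short-read replicate 1 was the highest of the Avicel libraries. con-10, whose transcript is known to rise with light as well as during conidiation, gave 158, 699 and 680 FPKM on Avicel, against 0, 5.38 and 0 FPKM on sucrose (log2 change 7.83, SE 1.16, adjusted p = 6.16e-05). For con-10 replicate 1 was the lowest Avicel library. Several sucrose values are listed at 0, and the smallest number of reads behind any value above 0 of the 5 genes was 10.

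The hydrophobin gene eas reached 34620, 20371 and 17326 FPKM on Avicel at 4 h, against 62.5, 388 and 155 FPKM on sucrose, a log2 change of 7.20 (SE 1.41, adjusted p = 0.000625). ccg-1 had 52427, 135310 and 138708 FPKM on Avicel, against 1411, 1327 and 328 FPKM on sucrose, a log2 change of 6.87 (SE 0.71, adjusted p = 2.48e-06). ccg-1 had the highest FPKM of any gene in replicates 2 and 3 on Avicel and ranked 8 in replicate 1. The authors' deposited tables also list all 5 genes as higher on Avicel than on sucrose at 4 h. The log2 changes run from 6.57 to 8.24 in the authors' deposited DESeq table. Of its genes with a listed adjusted p, 48.0% are under 0.05. In the authors' deposited edgeR table the changes run from 7.14 to 8.53, and 55.9% of its genes have an adjusted p under 0.05.

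Without any carbon source for 4 h the 5 genes were again all higher than on sucrose, where 39.6% of tested genes were higher and 23.6% lower, 63.2% in either direction. Every no-carbon library lay above every sucrose library for each of them, and for 44.8% of tested genes. Their median log2 change was 9.92, beside 0.36 over all tested genes. con-6 stood at 1516, 5383 and 4879 FPKM without carbon, against 0, 8.01 and 3.85 FPKM on sucrose (log2 change 9.92, SE 0.94, adjusted p = 1.14e-06). con-8 stood at 3029, 4498 and 7958 FPKM and con-10 at 1400, 1850 and 2575 FPKM without carbon, with log2 changes of 10.26 and 9.99 from sucrose. Only 2 tested genes had a larger log2 change than con-8 in this comparison, and 4 had a larger one than con-10.

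eas had 206272, 78251 and 65514 FPKM without carbon at 4 h, a log2 change of 9.34 from sucrose (SE 1.41, adjusted p = 6.57e-05). ccg-1 had 171706, 255469 and 301939 FPKM, a log2 change of 8.12 from sucrose (SE 0.71, adjusted p = 5.34e-07). In every no-carbon library at 4 h eas and ccg-1 ranked 1 and 2 among all genes, with eas first in replicate 1 and ccg-1 first in the others. The no-carbon and the Avicel comparisons use the same sucrose libraries, so their values are set side by side and are not independent.

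**Figure D1:**
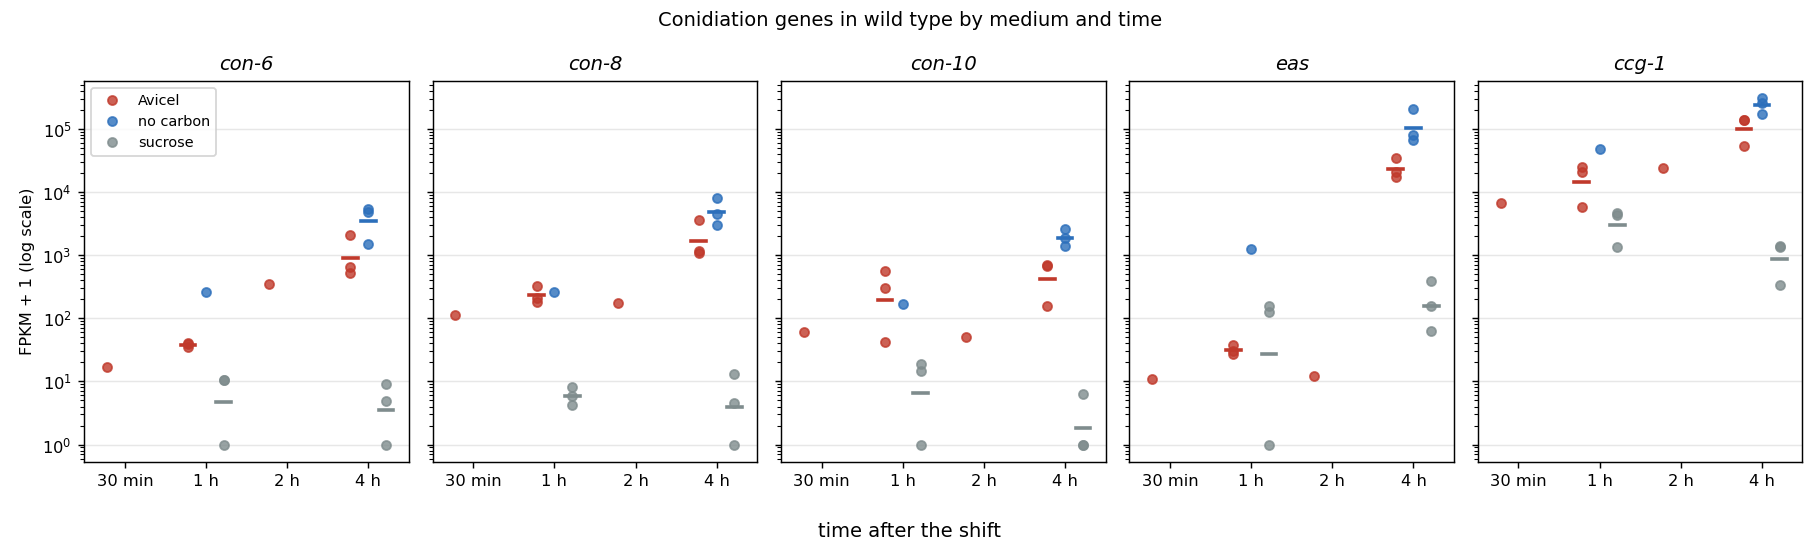
FPKM + 1 on a log scale for each gene in each wild-type library, by time after the shift; red is Avicel, blue is no carbon, grey is sucrose, and a bar marks the mean of log2(FPKM + 1) of a triplicate. At 4 h the Avicel and no-carbon libraries lie above every sucrose library for all 5 genes, and at 1 h the Avicel libraries of eas lie within the range of the sucrose libraries.

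The plot of levels by time shows how high these levels were within a library. The 5 genes together held 1.80%, 4.02% and 3.85% of the summed FPKM in the Avicel libraries at 4 h. They held 10.8%, 9.45% and 10.6% without carbon at 4 h, and 0.0279%, 0.0245% and 0.00693% on sucrose at 4 h. Most of this share belonged to ccg-1 on Avicel, and to ccg-1 and eas together without carbon, as the plot of shares by library shows.

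**Figure D2:**
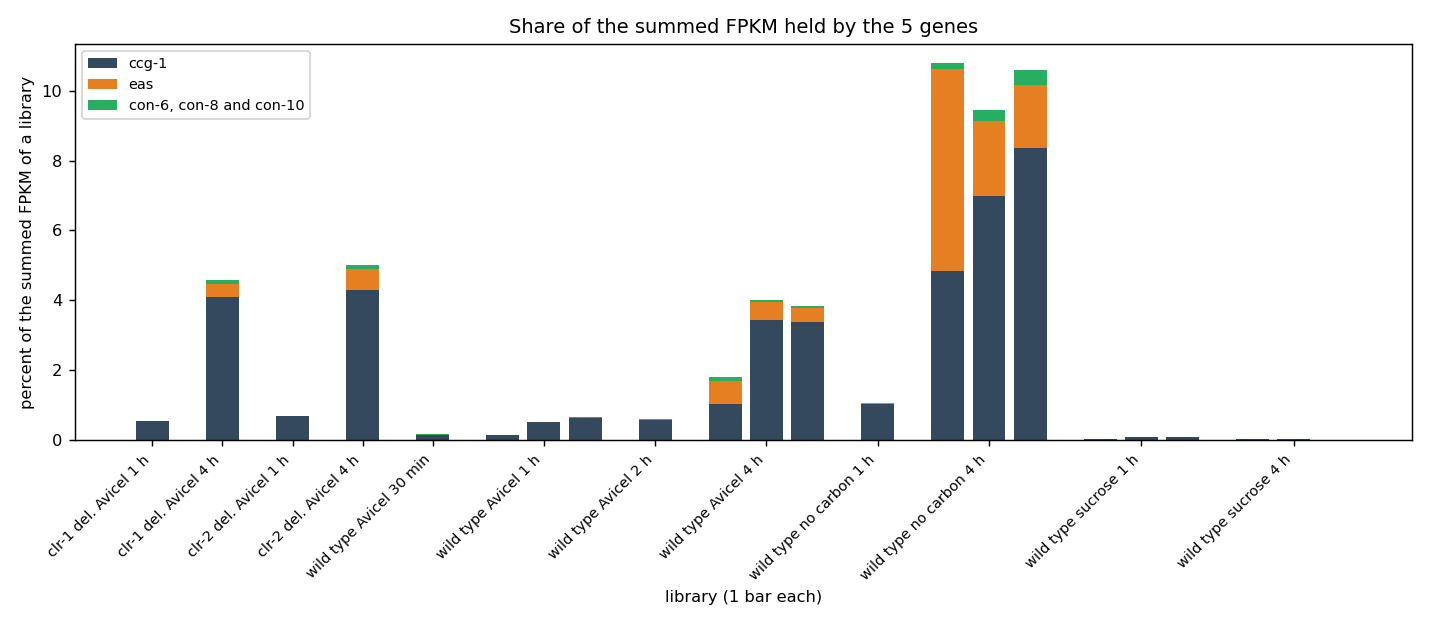
Percent of the summed FPKM of all genes held by ccg-1, by eas and by the 3 con genes in each library, 1 bar per library, with the deletion strains at the left and wild type on sucrose at the right (the sucrose libraries of the deletion strains, each under 0.1%, are not drawn). The 3 no-carbon libraries at 4 h hold 9.45% to 10.8%, and the Avicel libraries at 4 h of all strains hold 1.80% to 5.02%.

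Whether cellulose itself sets the level apart from the lack of sugar was addressed by comparing Avicel with no carbon at 4 h. None of the 5 genes passed the limma test. The number with an unadjusted p under 0.05 was 0 by limma and 4 by voom, which called 0 after adjustment. Over all tested genes 1.73% were lower and 3.66% higher on Avicel, 5.39% in either direction. The log2 changes were all negative: -1.94 for con-6 (95% interval -3.97 to 0.10), -1.54 for con-8 (-3.14 to 0.07), -2.16 for con-10 (-4.66 to 0.35), -2.15 for eas (-5.19 to 0.90) and -1.25 for ccg-1 (-2.78 to 0.28). All Avicel libraries lay below all no-carbon libraries for con-10, eas and ccg-1, as for 20.7% of tested genes, while for con-6 and con-8 the groups overlapped through replicate 1 on Avicel.

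This comparison turned on the short-read libraries and on the test. Without the 4 short-read replicates con-6 (-2.55, adjusted p = 0.00833), con-8 (-2.11, adjusted p = 0.0264) and eas (-2.44, adjusted p = 0.0108) were lower on Avicel than without carbon, and con-10 and ccg-1 did not pass. In that fit 6.35% of all tested genes were lower and 6.92% higher on Avicel, 13.3% in either direction. The authors' deposited edgeR table lists all 5 as lower on Avicel, by log2 changes of -1.46 for ccg-1 to -2.71 for eas, where 8.68% of its genes have an adjusted p under 0.05. The authors' deposited DESeq table passes con-6 alone of the 5 (log2 change -1.58, adjusted p = 0.0126), where 4.36% of its genes with a listed adjusted p pass.

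**Figure D3:**
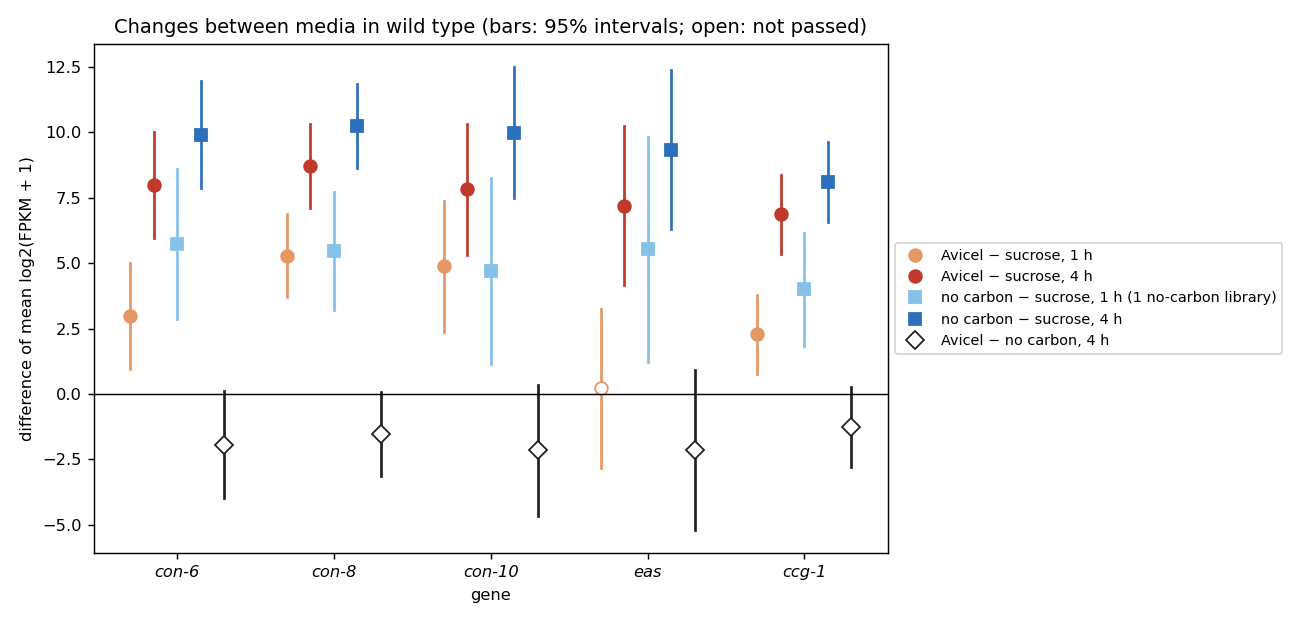
Log2 change of each gene in wild type between media, with 95% intervals from limma; circles are Avicel minus sucrose and squares are no carbon minus sucrose, each at 1 h and 4 h, diamonds are Avicel minus no carbon at 4 h, and open symbols did not pass. All 10 changes from sucrose at 4 h lie between 6.87 and 10.26, eas on Avicel at 1 h lies at 0.21, and all 5 diamonds are open and below 0.

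At 1 h after the shift con-6, con-8, con-10 and ccg-1 were already higher on Avicel than on sucrose, while eas did not pass. Of all tested genes 37.3% were higher and 24.6% lower, 62.0% in either direction. con-8 had the largest of these changes, with 181, 210 and 327 FPKM on Avicel, against 4.94, 7.17 and 3.29 FPKM on sucrose (log2 change 5.29, SE 0.74, adjusted p = 3.74e-05). con-10 had 41.2, 303 and 551 FPKM on Avicel, against 0, 18.0 and 13.5 FPKM on sucrose (log2 change 4.88, SE 1.16, adjusted p = 0.00247). In con-10 the 3 Avicel libraries differ more among themselves than in con-8, with the short-read library the lowest.

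con-6 gave 39.1, 33.5 and 37.6 FPKM on Avicel at 1 h, against 0, 9.43 and 9.51 FPKM on sucrose (log2 change 2.98, SE 0.94, adjusted p = 0.0143). ccg-1 gave 5851, 20749 and 24616 FPKM on Avicel, against 1321, 4543 and 4358 FPKM on sucrose (log2 change 2.28, SE 0.71, adjusted p = 0.0128). For both genes, as for con-8 and con-10 and 3451 of the 8629 tested genes (40%), every Avicel library lay above every sucrose library. Without sucrose replicate 1 neither passed, with log2 changes of 1.85 (adjusted p = 0.0744) for con-6 and 1.69 (adjusted p = 0.0662) for ccg-1. ccg-1 also did not pass without Avicel replicate 3 (1.89, adjusted p = 0.0558), and con-6 did not pass with a pseudocount of 0.1 (adjusted p = 0.0528) or by voom (adjusted p = 0.126).

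The hydrophobin gene eas was the exception at 1 h. It had 26.2, 36.7 and 29.4 FPKM on Avicel, against 0, 157 and 126 FPKM on sucrose, a log2 change of 0.21 (SE 1.41, adjusted p = 0.913). A single sucrose library, the short-read replicate 1 in which eas is listed at 0, decided this value. Without it the log2 change was -2.17 (adjusted p = 0.011), and without all 4 short-read replicates -2.06 (adjusted p = 0.00684), so that eas was then lower on Avicel than on sucrose at 1 h. Without the short-read replicates 28.2% of tested genes were lower in this comparison.

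In the single no-carbon library at 1 h all 5 genes were higher than on sucrose, with 35.5% of tested genes higher and 23.4% lower, 58.9% in either direction. The test takes the spread of that library from the triplicates. eas stood at 1253 FPKM without carbon, against 0, 157 and 126 FPKM on sucrose (log2 change 5.53, SE 2.00, adjusted p = 0.0293). ccg-1 stood at 47849 FPKM and con-6 at 255 FPKM without carbon. Both values, like that of eas, lay above all Avicel and sucrose libraries at 1 h. The share of all tested genes for which this holds was not counted. con-8, at 262 FPKM, and con-10, at 168 FPKM, lay within the range of the Avicel libraries at 1 h. With a pseudocount of 0.1 neither con-10 (adjusted p = 0.0795) nor eas (adjusted p = 0.0639) passed in this comparison. con-10 also did not pass by voom (4.54, adjusted p = 0.0528), nor eas with no filter on low values (5.53, adjusted p = 0.0551). Without sucrose replicate 1 con-10 did not pass (adjusted p = 0.0584).

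Between 1 h and 4 h on Avicel con-6, con-8, eas and ccg-1 became higher, and con-10 did not pass, with 17.3% of tested genes higher and 19.7% lower, 37.0% in either direction. The change of eas was the largest of the 5, at 34620, 20371 and 17326 FPKM at 4 h, against 26.2, 36.7 and 29.4 FPKM at 1 h (log2 change 9.52, SE 1.41, adjusted p = 0.000228). Only 9 tested genes had a larger log2 change. con-6 changed by 4.56 (SE 0.94, adjusted p = 0.00227), con-8 by 2.82 (SE 0.74, adjusted p = 0.00968) and ccg-1 by 2.79 (SE 0.71, adjusted p = 0.00794). con-10 changed by 1.14 (95% interval -1.37 to 3.65, adjusted p = 0.47), and its libraries at 4 h overlapped those at 1 h. With a pseudocount of 0.1 con-6 (adjusted p = 0.0547) and con-8 (adjusted p = 0.0997) did not pass.

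The time points on Avicel show different courses for the 5 genes. For con-6 the 30 min library gave 15.9 FPKM, the 1 h libraries 33.5 to 39.1 FPKM, the 2 h library 342 FPKM and the 4 h libraries 517 to 2082 FPKM. The corresponding eas values were 9.72 FPKM (30 min), 26.2 to 36.7 FPKM (1 h), 11.3 FPKM (2 h) and 17326 to 34620 FPKM (4 h). The 2 h value of con-6 is thus above all its 1 h values, and that of eas is below them. con-8 gave 111 FPKM (30 min), 181 to 327 FPKM (1 h), 175 FPKM (2 h) and 1076 to 3628 FPKM (4 h). con-10 gave 59.6 FPKM (30 min), 41.2 to 551 FPKM (1 h), 49.98 FPKM (2 h) and 158 to 699 FPKM (4 h), with its 2 h value inside the 1 h range and that of con-8 below it. ccg-1 gave 6684 FPKM (30 min), 5851 to 24616 FPKM (1 h), 23750 FPKM (2 h) and 52427 to 138708 FPKM (4 h). Both the 30 min and the 2 h values come from 1 library each, with an estimated read length of 36 bases, like replicate 1 at 1 h. No sucrose library was sampled at 30 min or 2 h, so these values carry no test. In the 36-base libraries alone, in time order, ccg-1 stood at 6684, 5851 and 23750 FPKM and con-10 at 59.6, 41.2 and 49.98 FPKM. con-6 stood there at 15.9, 39.1 and 342 FPKM, con-8 at 111, 181 and 175 FPKM, and eas at 9.72, 26.2 and 11.3 FPKM. The eas values there rest on 13, 34 and 18 reads.

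On sucrose itself none of the 5 genes passed between 4 h and 1 h, where 7.61% of all tested genes did, 3.89% higher and 3.72% lower at 4 h. Before adjustment 1 of the 5 was under 0.05 by limma, and the same number by voom, which also called 0. ccg-1 stood at 1411, 1327 and 328 FPKM at 4 h, against 1321, 4543 and 4358 FPKM at 1 h (log2 change -1.80, adjusted p = 0.142). The groups overlapped through replicate 1 at 1 h. Without the short-read replicates ccg-1 (-2.75, adjusted p = 0.00486) and con-10 (-2.72, adjusted p = 0.0163) were lower at 4 h, in a fit where 16.8% of tested genes were lower and 34.6% passed in either direction.

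Without carbon con-8 and eas were higher at 4 h than in the single library at 1 h, with 10.1% of tested genes higher and 21.0% passing in either direction. con-8 stood at 3029, 4498 and 7958 FPKM at 4 h, against 262 FPKM at 1 h (log2 change 4.18, SE 1.05, adjusted p = 0.013). eas stood at 206272, 78251 and 65514 FPKM at 4 h, against 1253 FPKM at 1 h (log2 change 6.34, SE 2.00, adjusted p = 0.0381). con-6 changed by 3.74 (adjusted p = 0.0629), con-10 by 3.48 (adjusted p = 0.151) and ccg-1 by 2.31 (adjusted p = 0.12), and each had all its 4 h values above the 1 h value, as 39.5% of tested genes did. These calls varied with the settings: 0 of the 5 passed with a pseudocount of 0.1, and 5 of the 5 passed without the short-read replicates, where 24.1% of tested genes were higher and 48.8% passed in either direction. eas did not pass without any one of the no-carbon 4 h libraries (adjusted p = 0.0582 to 0.0823) or without Avicel 1 h replicate 2 (adjusted p = 0.0502).

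Whether the change from sucrose to Avicel was larger at 4 h than at 1 h was tested as an interaction. It passed for 4 of the 5 genes, with 14.8% of tested genes higher and 16.3% lower, 31.1% in either direction. eas gained most, with a difference of 6.99 between the 2 log2 changes (SE 2.00, adjusted p = 0.0182). The difference was 5.01 for con-6 (SE 1.34, adjusted p = 0.0126), 4.59 for ccg-1 (SE 1.00, adjusted p = 0.00429) and 3.43 for con-8 (SE 1.05, adjusted p = 0.0249). For con-10 the difference was 2.95 and did not pass (95% interval -0.60 to 6.50, adjusted p = 0.193). With a pseudocount of 0.1 ccg-1 alone of the 5 passed. By voom neither con-6 (5.08, adjusted p = 0.14) nor con-8 (3.88, adjusted p = 0.118) passed. con-8 also did not pass without the short-read replicates (1.70, adjusted p = 0.11), or without Avicel 1 h replicate 1, Avicel 4 h replicate 1 or sucrose 1 h replicate 2 (adjusted p = 0.0503 to 0.0594). With the replicate number in the model con-10 passed (2.95, adjusted p = 0.049), as it did without sucrose 1 h replicate 1 (4.30, adjusted p = 0.0351) or without the short-read replicates (3.47, adjusted p = 0.018).

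Loss of clr-1 or clr-2 was set against wild type in the same medium at the same time. On Avicel at 4 h none of the 5 genes passed in either strain, where 1.26% of tested genes passed for the clr-1 deletion strain (0.197% higher, 1.07% lower) and 1.01% for the clr-2 deletion strain. In the other deletion comparisons none of the 5 passed either. There 0.0116% and 0.0579% of tested genes passed on Avicel at 1 h, for the clr-1 and the clr-2 deletion strain in that order, 0.0695% and 0.0811% at 4 h with sucrose, 0.0464% and 0.0695% at 1 h with sucrose, and 0.475% and 0.452% for the change in the Avicel response at 4 h. Of the 50 tests of these genes in the deletion strains, 2 gave an unadjusted p under 0.05 by limma, both for ccg-1 on sucrose at 4 h. voom called 0 of the 5 genes in every deletion comparison, also with 1 of the 5 under an unadjusted p of 0.05 on sucrose at 4 h in each strain. A single library per group leaves wide intervals, and a test that was not passed does not show that the strains had equal levels.

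The levels on Avicel at 4 h were high in both deletion strains. con-6 stood at 1051 FPKM in the clr-1 deletion strain and 1156 FPKM in the clr-2 deletion strain, against 2082, 654 and 517 FPKM in wild type, within the wild-type range. con-8 stood at 2207 and 1902 FPKM in the clr-1 and clr-2 deletion strains, against 3628, 1076 and 1138 FPKM in wild type, also within it. con-10, at 912 FPKM in the clr-1 deletion strain and 1040 FPKM in the clr-2 deletion strain, against 158, 699 and 680 FPKM in wild type, was above every wild-type library. Its log2 changes were 1.11 (95% interval -2.44 to 4.66) and 1.30 (-2.25 to 4.85). ccg-1 was also above every wild-type library in both strains. Over the 5 genes in both strains, 5 values lay inside the wild-type range, 4 above it and 1 below it. The share of all tested genes outside that range was not counted, so no difference between the strains is read from these counts.

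eas stood at 13085 FPKM in the clr-1 deletion strain and 20484 FPKM in the clr-2 deletion strain, against 34620, 20371 and 17326 FPKM in wild type. The log2 changes were -0.82 (95% interval -5.12 to 3.49) and -0.17 (-4.48 to 4.14). ccg-1, at 145774 and 147084 FPKM in the clr-1 and clr-2 deletion strains, against 52427, 135310 and 138708 FPKM in wild type, had the highest FPKM of all genes in both deletion libraries. Its log2 changes were 0.55 (-1.61 to 2.71) and 0.56 (-1.59 to 2.72). The 5 genes together held 4.58% and 5.02% of the summed FPKM in the clr-1 and clr-2 deletion libraries, against 1.80%, 4.02% and 3.85% in wild type.

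On Avicel at 1 h con-10 and con-8 stood at 156 and 177 FPKM in the clr-1 deletion strain and at 261 and 252 FPKM in the clr-2 deletion strain, against 41.2 to 551 FPKM for con-10 and 181 to 327 FPKM for con-8 in wild type. eas stood at 20.5 FPKM in the clr-1 deletion strain and 17.4 FPKM in the clr-2 deletion strain, against 26.2 to 36.7 FPKM in wild type. con-6 stood at 31.2 FPKM in the clr-1 deletion strain, below the wild-type range of 33.5 to 39.1 FPKM, and at 67.7 FPKM in the clr-2 deletion strain, above it. ccg-1 stood at 23112 FPKM in the clr-1 deletion strain and 27985 FPKM in the clr-2 deletion strain, against 5851 to 24616 FPKM in wild type. Taking all the genes in both strains, 4 values lay inside the wild-type range, 2 above it and 4 below it. How many of all tested genes lay outside that range was not counted, so no difference between the strains is read from these counts.

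**Figure D4:**
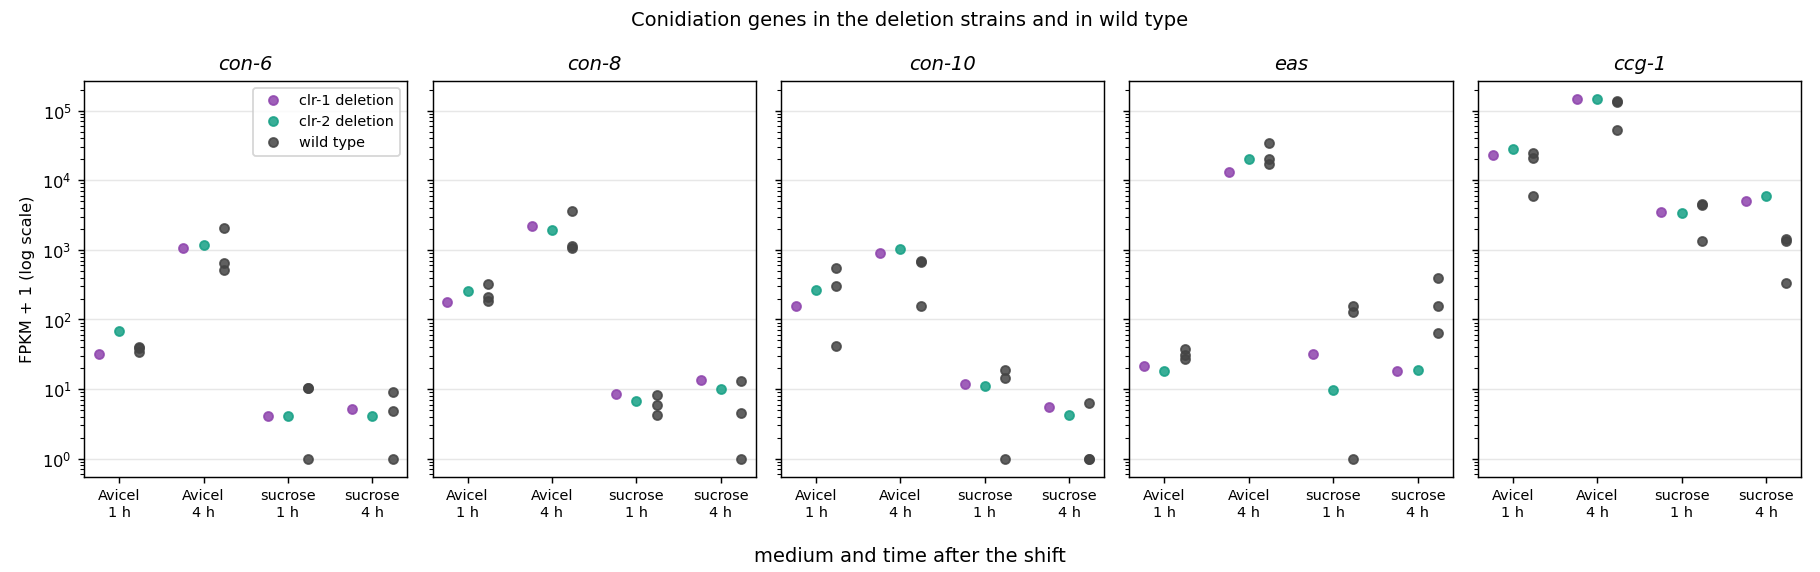
FPKM + 1 on a log scale for each gene in each library of the clr-1 deletion strain (purple), the clr-2 deletion strain (green) and wild type (dark grey), by medium and time. On Avicel at 4 h the deletion libraries lie within or near the wild-type libraries for all 5 genes. On sucrose at 4 h both deletion libraries lie below the wild-type libraries for eas and above them for ccg-1. The share of all tested genes that lie apart in this way was not counted.

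On sucrose at 4 h both deletion libraries stood outside the wild-type range for eas and ccg-1. Over the 5 genes in both strains, 5 values lay inside that range, 3 above it and 2 below it. The share of all tested genes outside it was not counted, so no difference between the strains is read from these counts. eas had 17.2 FPKM in the clr-1 deletion strain and 17.8 FPKM in the clr-2 deletion strain, against 62.5, 388 and 155 FPKM in wild type (log2 changes -3.10 and -3.06, adjusted p = 0.718 and 1). ccg-1 had 4965 and 5951 FPKM in the clr-1 and clr-2 deletion strains, against 1411, 1327 and 328 FPKM in wild type (log2 changes 2.54 and 2.81, adjusted p = 0.477 and 0.543). Without the short-read replicates the number of genes called rose to 1599 (18.5% of those tested) for loss of clr-1 and 1078 (12.5%) for loss of clr-2, against 6 and 7 with them. In that fit eas and ccg-1 passed in both strains: the log2 changes of eas were -3.76 for loss of clr-1 (adjusted p = 0.00471) and -3.71 for loss of clr-2 (adjusted p = 0.00754). Those of ccg-1 were 2.91 for loss of clr-1 (adjusted p = 0.0152) and 3.17 for loss of clr-2 (adjusted p = 0.0157). In that fit eas was also lower on sucrose at 1 h in the clr-2 deletion strain (-3.84, adjusted p = 0.0322), where 1.15% of tested genes passed.

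The deletion strains also differed from wild type in ccg-4, a clock-controlled gene for a pheromone precursor that is known to be expressed in strains of mating type A. ccg-4 was listed at 0 in all 8 deletion libraries and at 3.29 to 3710 FPKM in the 18 wild-type libraries. The labels used here do not give the mating types, and whether this difference between the strains has a part in the levels of the 5 genes was not tested.

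Other genes of the same pathways were described from 3 lists. The first holds 9 further genes with con or ccg names. The second holds 6 genes listed as regulators of conidiation (fl, acon-2, acon-3, rca-1, csp-1 and csp-2), and whether each acts in conidiation was not tested. The third holds 7 genes of light sensing, the clock and carotenoid synthesis (wc-1, wc-2, frq, vvd, al-1, al-2 and al-3). On Avicel against sucrose at 4 h 5 of the 9 con and ccg genes were higher, 0 were lower and 4 did not pass, with a median log2 change of 1.19, beside 34.3% higher and 24.2% lower of all tested genes and a median of 0.24. The count of higher genes was 3 without Avicel replicate 2, Avicel replicate 3 or sucrose replicate 3 at 4 h. Without carbon against sucrose at 4 h 6 were higher, 1 was lower and 2 did not pass, with a median of 1.78, beside 39.6% higher and 23.6% lower of all tested genes and a median of 0.36. Rescaling the libraries to the median of gene ratios, an alternative chosen for the lists after seeing the data, changed no call of the 3 lists at 4 h. Leaving out the short-read replicates, likewise chosen, changed some: rca-1 passed (1.12, adjusted p = 0.0288) and vvd did not (1.65, adjusted p = 0.0536) on Avicel against sucrose, and ccg-14 passed (2.35, adjusted p = 0.00271) and frq did not (0.72, adjusted p = 0.0576) without carbon against sucrose. For Avicel against no carbon ccg-4 (1.40, adjusted p = 0.00721) and ccg-6 (0.91, adjusted p = 0.00888) then passed as higher on Avicel and ccg-14 (-3.06, adjusted p = 0.005) as lower.

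ccg-16, the gene of the list with the highest mean level, averaged 32130 FPKM on Avicel and 50730 FPKM without carbon, against 14100 FPKM on sucrose (log2 changes 1.19 and 1.78, adjusted p = 0.0348 and 0.00336). ccg-6 was lower without carbon than on sucrose (-0.91, adjusted p = 0.0073) and did not pass on Avicel (-0.02), and ccg-15 was higher in both media (0.62 and 0.65, adjusted p = 0.0248 and 0.0178). On Avicel ccg-16 did not pass with no filter (adjusted p = 0.118) or without any one of the Avicel or sucrose libraries at 4 h (adjusted p = 0.06 to 0.0749). ccg-15 on Avicel did not pass without Avicel or sucrose replicate 2 or 3 at 4 h (adjusted p = 0.0561 to 0.0587), nor without carbon when no-carbon replicate 2 was left out (adjusted p = 0.0709). These 3 genes are strongly expressed on sucrose as well, unlike con-6, con-8 and con-10. ccg-4 stood at 1211, 3252 and 3710 FPKM on Avicel and 1034, 1562 and 1409 FPKM without carbon, against 6.37, 45.2 and 25.1 FPKM on sucrose. Its log2 changes of 6.88 and 5.99 (adjusted p = 2.18e-05 and 6.82e-05) are in the range of the 5 genes on Avicel but below it without carbon. con-13, singled out here after its values were seen because it lies beside con-10 in ID order, averaged 8.85 FPKM on Avicel and 28.6 FPKM without carbon and was listed at 0 in all 3 sucrose libraries. It was lower on Avicel than without carbon (log2 change -1.49, adjusted p = 0.0262). That call was lost without any one of the 3 Avicel libraries or without no-carbon replicate 2 or 3 at 4 h (adjusted p = 0.0555 to 0.138), with a pseudocount of 0.1 (adjusted p = 0.134) and by voom (adjusted p = 0.0621).

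Among the regulators 3 of 6 were higher on Avicel than on sucrose at 4 h and 3 did not pass, and 4 of 6 were higher without carbon and 2 did not pass. Of all tested genes 34.3% were higher on Avicel and 39.6% without carbon. The median log2 changes were 1.04 on Avicel and 1.56 without carbon. fl, which encodes the zinc-cluster transcription factor fluffy and is needed for conidiophores to form, averaged 78.9 FPKM on Avicel and 172 FPKM without carbon, against 33.9 FPKM on sucrose (log2 changes 1.18 and 2.22, adjusted p = 0.0271 and 0.000416). On Avicel fl did not pass without Avicel replicate 2 or 3 or sucrose replicate 1 or 2 at 4 h (adjusted p = 0.0503 to 0.0934). csp-1 and csp-2 are regulators needed for conidia to separate. csp-1 averaged 273 FPKM on Avicel and 757 FPKM without carbon, against 139 FPKM on sucrose, and passed without carbon but not on Avicel (log2 changes 0.97 on Avicel and 2.16 without carbon, adjusted p = 0.0542 and 0.000418). It passed on Avicel without no-carbon replicate 1 or 3 (adjusted p = 0.0427 and 0.00391). csp-2 was higher in both media (1.10 and 0.97, adjusted p = 0.0129 and 0.0229), but not without carbon by voom (adjusted p = 0.0602) or without no-carbon replicate 2 or 3 or sucrose replicate 2 or 3 at 4 h (adjusted p = 0.0502 to 0.0778). rca-1 did not pass in either (0.46 and 0.73), and acon-3, singled out for the largest change of the list, was higher in both (2.12 and 3.53, adjusted p = 0.00469 and 8.49e-05). acon-2, singled out for its negative changes, did not pass in either (-0.50 and -0.94, adjusted p = 0.352 and 0.0806). Without carbon it passed as lower by voom (-1.06, adjusted p = 0.0333). It also did so without Avicel 1 h replicate 1 (adjusted p = 0.026) or no-carbon 4 h replicate 2 (-1.40, adjusted p = 0.0134).

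Of the light, clock and carotenoid genes 4 of 7 were higher on Avicel than on sucrose at 4 h and 3 did not pass, and 6 of 7 were higher without carbon and 1 did not pass, beside 34.3% and 39.6% higher of all tested genes. The medians were 1.14 and 2.32. vvd, the gene of a small blue-light photoreceptor, averaged 1536 FPKM on Avicel and 4552 FPKM without carbon, against 422 FPKM on sucrose (log2 changes 1.88 and 3.10, adjusted p = 0.00811 and 0.000198). al-1, the gene of phytoene dehydrogenase in carotenoid synthesis, had log2 changes of 3.56 and 4.64 (adjusted p = 0.000439 and 4.34e-05). al-3, which makes the precursor geranylgeranyl diphosphate, had 1.52 and 2.81 (adjusted p = 0.000453 and 2.08e-06) and was lower on Avicel than without carbon (-1.29, adjusted p = 0.0165). That call was lost without Avicel replicate 1, no-carbon replicate 1 or no-carbon replicate 3 at 4 h (adjusted p = 0.0684 to 0.0869). Without no-carbon replicate 1 frq, vvd, al-1 and al-2 passed in its place as lower on Avicel (adjusted p = 0.00662 to 0.0484). al-2, the gene of phytoene synthase, was higher without carbon (2.32, adjusted p = 0.00105) and did not pass on Avicel (1.14, adjusted p = 0.0615), except by voom (adjusted p = 0.0219) and without no-carbon replicate 1 or 3 (adjusted p = 0.0095 and 0.00729). Light at harvest is not given in the labels, and its part in these levels was not tested.

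**Figure D5:**
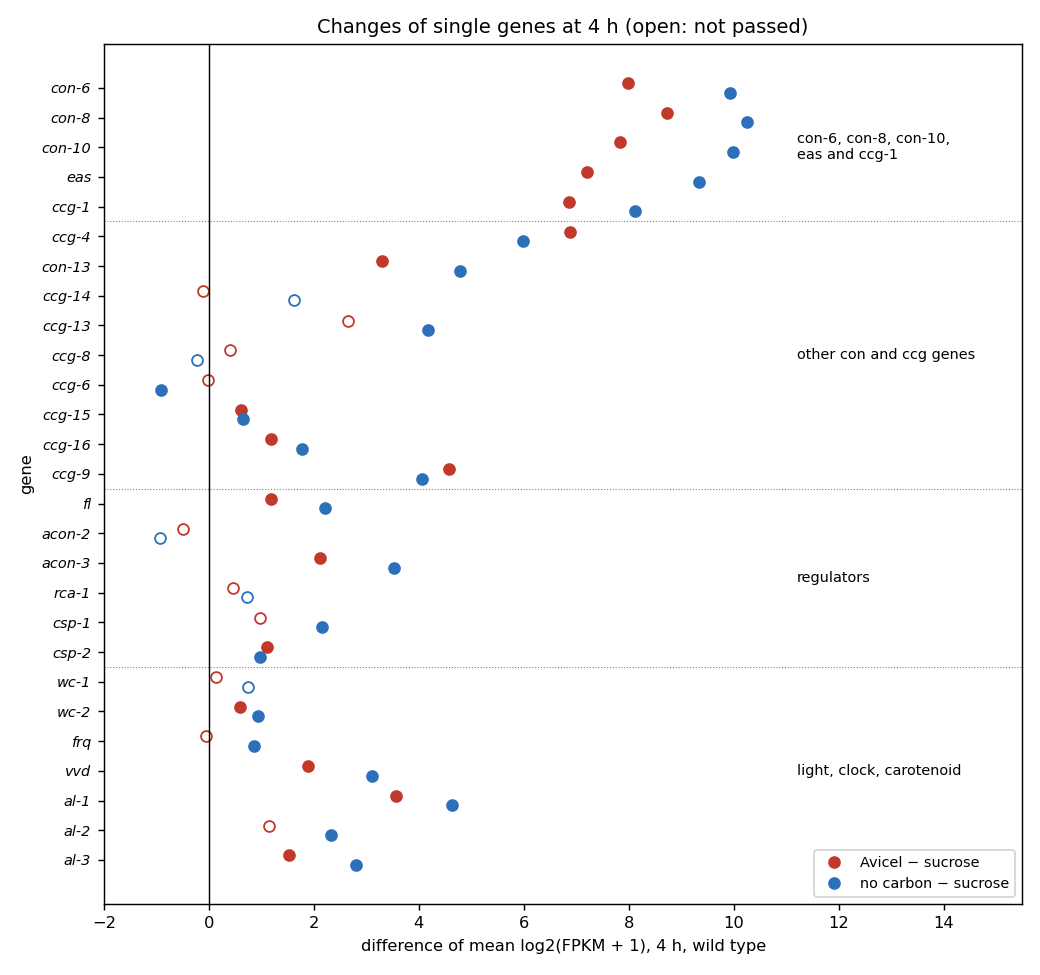
Log2 change at 4 h in wild type for the 5 genes and the 22 genes of the 3 lists; red is Avicel minus sucrose, blue is no carbon minus sucrose, and open circles did not pass. The 5 genes lie at 6.87 to 10.26, ccg-4 at 6.88 and 5.99, and the regulators between -0.94 and 3.53.

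Across all 26 libraries the 5 genes varied together to different degrees, given here as a description over libraries that share 16 groups. Pearson r of log2(FPKM + 1) was 0.95 between con-6 and con-8 and between con-10 and ccg-1, and 0.69 between con-10 and eas. eas had the lowest r with each of the other genes. Of the 7739 genes that averaged 10 FPKM or more, 11 had an r of at least 0.9 with eas, against 180 for con-10, 182 for con-6, 199 for ccg-1 and 368 for con-8. The most alike genes were bli-3, a blue-light-induced gene, for ccg-1 (r = 0.985), NCU05819 for con-6 (0.975), amt for con-8 (0.980), NCU08489 for con-10 (0.973) and nca-3, a calcium pump gene, for eas (0.942). The next were NCU05148 and NCU01107 for ccg-1 (0.985 and 0.982), NCU05069 and amt for con-6 (0.972 and 0.972), NCU05229 and NCU08516 for con-8 (0.976 and 0.973), NCU04908 and NCU02433 for con-10 (0.963 and 0.959) and NCU08455 and NCU09274 for eas (0.931 and 0.923).

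In the order of group means wild type without carbon at 4 h was first for each of the 5 genes, and the 3 Avicel groups at 4 h, from both deletion strains and wild type, came next. Among these 3 Avicel groups the con-6 and con-8 values of the deletion strains lie within the wild-type range. Those of con-10 and ccg-1 lie above it in both deletion strains. The eas value lies below it in the clr-1 deletion strain and within it in the clr-2 deletion strain. Neither deletion strain passed against wild type on Avicel at 4 h for any of the 5 genes. Sucrose groups filled the last 6 places for con-6, con-8, con-10 and ccg-1. For eas the wild-type sucrose groups at 4 h and 1 h, with means of 202 and 94.1 FPKM, came directly after the no-carbon library at 1 h. The Avicel libraries at 30 min and 2 h were near the bottom of its order.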

How the data were processed

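Poly(A) RNA was sequenced in 26 libraries that form 16 groups: 5 triplicates and 11 groups of 1 library. The authors deposited FPKM per transcript, made with Cufflinks 0.9.3 after TopHat alignment, per the submitters' processing notes; the genome build is not given in the sources used here. The deposited files also hold a coverage signal and transcript lengths, per the file headers. These served to estimate the read length of each library and to recover whole reads (87.5% to 93.0% of transcripts under 200 reads, tolerance 0.02). The authors deposited DESeq results as fold ratios and p-values, and edgeR results as log2 fold changes and p-values. The authors' DESeq headings run against the FPKM and the authors' edgeR values are the other medium over Avicel, so both signs were settled against the FPKM. Transcripts (9907) were summed to 9733 genes; no 2 libraries are identical and 0 sample columns were unused.

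Group means of log2(FPKM + 1) were fitted with limma 3.58.1 (R 4.3.3) over 8629 genes that averaged 1 FPKM or more, with 10 residual degrees of freedom, a variance trend, two-sided tests and Benjamini-Hochberg adjustment over all tested genes of each of 19 comparisons. A single library is assumed to vary as the triplicates do, and p-values measure only the spread between these samples. The procedure was tested on simulated data. Tables and levels were made with Python 3.11.15. The 5 genes, the lists and the tests were chosen with earlier results of these data known. Named were all 5 genes, the 3 most alike genes of each (Pearson r, mean of at least 10 FPKM), and the 4 genes of each list with the highest mean, plus those said to be singled out.

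Replicate numbers in the labels were taken to pair samples where every same-numbered pair deviated together with r over 0.1. This held for Avicel and sucrose at 4 h (0.183, 0.121 and 0.181) and at 1 h (0.283, 0.176 and 0.236). The labels used here do not state that cultures were paired. Replicate 1 is also the short-read library in both media. Each deviation is taken from the mean of its triplicate, so replicate 1 also enters the deviations of the other replicates. These r values therefore cannot tell pairing from read length for any replicate. The main fit leaves the pairing out, and the replicate block takes it in. Alternatives were pseudocounts of 0.1 and 10, no filter, a filter at 10 FPKM, rescaling to the median of gene ratios, voom on recovered reads, a replicate block, leaving out the 4 short-read replicates, and leaving out each replicate.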

Additional observations from a re-analysis of the deposited data

Results flagged for a closer look

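The Avicel response, the log2 difference between Avicel and sucrose in wild type, differed between 4 h and 1 h by a test of the interaction for 4 of the 5 genes, and this difference between the 2 times is what singled them out. It was larger at 4 h by 5.01 for con-6 (SE 1.34, adjusted p = 0.0126), by 3.43 for con-8 (SE 1.05, adjusted p = 0.0249), by 6.99 for eas (SE 2.00, adjusted p = 0.0182) and by 4.59 for ccg-1 (SE 1.00, adjusted p = 0.00429), in the limma fit over all genes. In this comparison 31.1% of all tested genes passed. With a pseudocount of 0.1 ccg-1 alone of the 5 passed, and by voom neither con-6 (adjusted p = 0.14) nor con-8 (adjusted p = 0.118) did. con-8 was also lost without the short-read replicates (adjusted p = 0.11) and without Avicel 1 h replicate 1, Avicel 4 h replicate 1 or sucrose 1 h replicate 2 (adjusted p = 0.0503 to 0.0594). For eas the sucrose 1 h library at 0 enters this difference; without it the value was 9.37.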

How the results depend on the processing

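Rescaling the libraries, which moved the median of all genes by -0.14 and -0.17 at 1 h (Avicel and no carbon against sucrose) and by 0.12 for Avicel 4 h against 1 h and for the response difference, changed no call of the 5 genes. At 4 h both comparisons with sucrose kept 5 called genes under every alternative. Of the values of single genes under alternatives, 2067 kept their direction and their side of the threshold and 118 did not; where no value shows it, the cause was not tested. Called genes numbered 3 for no carbon against sucrose at 1 h, 2 for Avicel 4 h against 1 h, 0 for no carbon 4 h against 1 h and 1 for the response difference with a pseudocount of 0.1. A pseudocount of 10 gave 1 for Avicel against no carbon (con-6) and 4 for no carbon over time, no filter gave 1 there, and voom gave 4 there and 2 for the response difference. The replicate block gave 4 for no carbon 4 h against 1 h and 5 for the response difference. It gave 5 and 4 for Avicel against sucrose at 4 h and 1 h, where the numbers were taken to pair the samples. The block changed no other call. Elsewhere the numbers are only shared (r from -0.314 to 0.453; 9 of 15 libraries matched their own number best). Without the 36- and 40-base replicates the counts were 3 for Avicel against no carbon, 2 for sucrose over time, 5 for no carbon over time, 2 on sucrose at 4 h in each deletion strain and 1 on sucrose at 1 h in the clr-2 deletion strain. Leaving out each replicate gave 0 to 1 called genes for Avicel against no carbon (eas without sucrose 1 h replicate 1, adjusted p = 0.0462) and 1 to 3 for no carbon over time.

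Some values changed sign under an alternative, and not all of these were near 0. For eas on Avicel against sucrose at 1 h the values were -0.59 (pseudocount 10), -0.20 (voom), -2.06 (without short reads) and -2.17 to 1.48 (leaving out each replicate). As given above, eas passed there as lower without the short reads or without sucrose replicate 1. With a pseudocount of 10 others were -0.57 for eas on sucrose at 1 h and, for the change in the Avicel response, 0.17 for con-6 and 0.75 for con-10 in the clr-1 deletion strain, and -0.05 for con-6 on sucrose at 4 h in the clr-2 deletion strain. With 0.1 con-6 gave 0.59 and 0.64 on sucrose at 1 h in the clr-1 and clr-2 deletion strains, and the clr-2 response gave -0.76 for con-6 and -1.85 for con-10. voom gave -0.32 for eas on sucrose at 1 h in the clr-1 deletion strain, and -0.07 on Avicel at 1 h and -0.96 in the response for con-10 in the clr-2 deletion strain. Without short reads con-8 gave 0.37 on sucrose over time. In the clr-1 deletion strain the values were then -0.34 for con-6 on sucrose at 4 h, -0.47, -2.14 and -0.35 for con-10, eas and ccg-1 on sucrose at 1 h, and 1.20 and 0.18 for con-6 and con-8 in the response (con-8 ran from -2.25 to -0.40 over the left-out replicates). For loss of clr-2 the values were 0.12 for eas on Avicel at 4 h, -0.64 and -0.05 for con-10 and con-8 on Avicel at 1 h, -0.67 for con-6 on sucrose at 4 h, -0.56 and -0.38 for con-10 and ccg-1 on sucrose at 1 h, and -0.17 and 0.39 for con-10 and con-8 in the response (con-8 from -2.04 to -0.18 over the left-out replicates), where con-6 was 1.66.

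Leaving out each replicate gave -1.57 to 0.47 for con-6 and -1.49 to 0.37 for con-8 on sucrose over time. In the clr-1 deletion strain it gave, for con-6, -0.15 to 0.85 on Avicel at 4 h, -0.34 to 1.24 on sucrose at 4 h, -1.37 to 0.33 on sucrose at 1 h and -1.0 to 0.58 in the response. There con-10 gave -1.38 to 0.48 on Avicel at 1 h, and con-10, eas and ccg-1 gave -0.47 to 1.65, -2.14 to 1.51 and -0.35 to 0.55 on sucrose at 1 h. In the clr-2 deletion strain con-6, con-8 and eas gave -0.01 to 0.99, -0.10 to 0.78 and -0.37 to 0.12 on Avicel at 4 h, and con-10 and con-8 gave -0.64 to 1.21 and -0.05 to 0.37 on Avicel at 1 h. On sucrose con-6 gave -0.67 to 0.91 at 4 h, and con-6, con-10, con-8 and ccg-1 gave -1.33 to 0.37, -0.56 to 1.56, -0.05 to 0.42 and -0.38 to 0.51 at 1 h. In the response con-6 gave -0.53 to 1.05 and con-10 -0.79 to 0.54.

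Over all genes, leaving out the short-read replicates moved the number called most: 1145 against 465 for Avicel against no carbon, 2988 against 657 for sucrose over time, 4212 against 1816 for no carbon over time, 383 against 109 and 194 against 87 on Avicel at 4 h in the clr-1 and clr-2 deletion strains, 37 against 1 and 19 against 5 on Avicel at 1 h, 1599 against 6 and 1078 against 7 on sucrose at 4 h, 276 against 4 and 99 against 6 on sucrose at 1 h, and 592 against 41 and 330 against 39 in the response. Under the other settings that changed a whole set of libraries the deletion counts ran from 0 to 19 on sucrose at 4 h and from 16 to 74 in the response. Single left-out replicates gave 300 for Avicel against no carbon (without no-carbon replicate 3), 197 to 957 for sucrose over time, and up to 197 on sucrose at 4 h in the clr-1 deletion strain (without sucrose 4 h replicate 1). Several sucrose values of the con genes are listed at 0, and the part of depth in these values was not tested.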
